A study of Mus musculus with 13 samples.

Results

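The regions described here are 3746 merged ATAC-seq peaks that lay in gene deserts, out of 99746 merged peaks in the series (3.76%). Wherever peaks of any of the 13 libraries shared 1 bp or more, they were fused into a single merged peak. A merged peak was kept if it lay on an autosome, at least 100 kb from every gene typed as protein-coding in the GENCODE M21 annotation, and if it was called in 3 to 12 of the 13 libraries. The members were therefore chosen by their position and by the number of libraries that called them, and that number is given below as a description only. Of the 10474 autosomal merged peaks at this distance, 5081 were called in 1 library, 1008 in 2 and 639 in all 13, and these were left out by the rule.

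The libraries came from oligodendrocyte precursor cells (OPCs), the dividing glial cells that give rise to myelinating oligodendrocytes, grown in culture from litters of AMGFAP-Cre;K27M mice aged 5 to 7 days. Tissue was pooled by region (brainstem, or dorsal telencephalon, labelled cortex) and by genotype, cells were captured on an antibody to PDGFRα, and the cultures were kept in proliferation medium before freezing and Omni-ATAC. In this model Cre, driven by a GFAP promoter in neural stem and progenitor cells from before birth, removes a stop cassette so that the endogenous H3-3a gene yields histone H3.3 K27M, in which lysine 27 is replaced by methionine; control cultures came from littermate controls, whose alleles the labels do not spell out. Brainstem gave 3 control and 3 K27M libraries, and telencephalon gave 3 control and 4 K27M libraries, each from a numbered culture of pooled animals. The same culture numbers (41, 51, 59 and 61) recur across the groups. The p-values measure the spread between libraries, and treat them as independent unless the culture number is named as a block.

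ATAC-seq marks chromatin that the Tn5 transposase can enter, such as promoters, enhancers and insulator sites. Gene deserts are long intervals without coding genes. They often flank genes for transcription factors of development and cell adhesion, and some are known to hold enhancers that act on a gene from far away. An open site in a desert cannot be given to a gene from its position alone, so the flanking genes named here are neighbours and not targets. The peak values were a peak's fold enrichment, relative to background reads nearby in the same library, and the −log10 of its p-value, both as deposited.

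Sequence windows of 300 bp at the centre of 9 members are shown because the results below turn on them. The first 4 are among the members that passed a test of fold or separated groups completely in lists cut to equal length. The next 2 are among the strongest members, and the last 3 flank genes of the oligodendrocyte lineage. All are from the plus strand of GRCm38 (the assembly of mm10), 5′ to 3′. Capitals mark letters that match one of the motifs listed further on, and a window in lower case throughout holds none of them.
Isl1 to Parp8, chr13:116514789-116515088: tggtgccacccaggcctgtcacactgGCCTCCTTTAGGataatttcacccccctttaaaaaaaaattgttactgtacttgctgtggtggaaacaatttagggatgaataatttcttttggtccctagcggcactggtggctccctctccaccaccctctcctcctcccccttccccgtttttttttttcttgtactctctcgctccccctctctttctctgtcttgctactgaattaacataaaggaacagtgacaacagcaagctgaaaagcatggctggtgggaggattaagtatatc
Cdh19 to Dsel, chr1:111355204-111355503: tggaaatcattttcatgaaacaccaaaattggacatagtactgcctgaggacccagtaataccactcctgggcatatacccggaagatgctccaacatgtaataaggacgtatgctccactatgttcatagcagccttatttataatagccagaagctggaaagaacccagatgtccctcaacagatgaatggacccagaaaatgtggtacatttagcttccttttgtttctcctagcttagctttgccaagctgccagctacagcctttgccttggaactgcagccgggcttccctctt
Gm5447 to A530084C06Rik, chr13:31185252-31185551: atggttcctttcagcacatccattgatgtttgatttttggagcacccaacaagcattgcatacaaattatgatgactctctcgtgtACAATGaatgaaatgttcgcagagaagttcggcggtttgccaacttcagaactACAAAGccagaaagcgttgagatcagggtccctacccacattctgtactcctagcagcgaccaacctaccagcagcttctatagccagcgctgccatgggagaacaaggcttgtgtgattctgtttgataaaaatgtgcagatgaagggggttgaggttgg
Hs3st4 to Kdm8, chr7:124975010-124975309: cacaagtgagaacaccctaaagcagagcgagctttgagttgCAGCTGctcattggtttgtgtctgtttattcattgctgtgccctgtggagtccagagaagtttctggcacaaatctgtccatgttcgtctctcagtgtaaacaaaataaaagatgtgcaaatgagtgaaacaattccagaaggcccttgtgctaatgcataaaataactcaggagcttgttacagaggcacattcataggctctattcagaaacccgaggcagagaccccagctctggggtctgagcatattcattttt
Prmt6 to Amy2a5, chr3:110788989-110789288: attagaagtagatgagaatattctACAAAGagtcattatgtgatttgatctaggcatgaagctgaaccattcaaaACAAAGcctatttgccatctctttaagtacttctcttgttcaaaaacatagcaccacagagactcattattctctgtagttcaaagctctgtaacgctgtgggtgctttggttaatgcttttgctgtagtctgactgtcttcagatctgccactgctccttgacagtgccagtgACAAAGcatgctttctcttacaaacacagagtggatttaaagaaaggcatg
Kif2a to Ndufaf2, chr13:107407331-107407630: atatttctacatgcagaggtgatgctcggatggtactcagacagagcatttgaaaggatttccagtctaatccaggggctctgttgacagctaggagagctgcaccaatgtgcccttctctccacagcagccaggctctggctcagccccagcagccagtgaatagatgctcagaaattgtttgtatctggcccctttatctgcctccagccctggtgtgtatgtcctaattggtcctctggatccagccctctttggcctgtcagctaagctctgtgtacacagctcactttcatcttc
Rnf144b to Id4, chr13:47708171-47708470: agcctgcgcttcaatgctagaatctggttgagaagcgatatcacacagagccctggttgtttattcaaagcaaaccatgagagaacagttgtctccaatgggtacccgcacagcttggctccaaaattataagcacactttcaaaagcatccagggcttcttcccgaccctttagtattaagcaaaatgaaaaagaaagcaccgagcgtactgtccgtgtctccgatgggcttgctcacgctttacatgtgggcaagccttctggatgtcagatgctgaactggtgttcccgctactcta
Zeb2 to Acvr2a, chr2:48062716-48063015: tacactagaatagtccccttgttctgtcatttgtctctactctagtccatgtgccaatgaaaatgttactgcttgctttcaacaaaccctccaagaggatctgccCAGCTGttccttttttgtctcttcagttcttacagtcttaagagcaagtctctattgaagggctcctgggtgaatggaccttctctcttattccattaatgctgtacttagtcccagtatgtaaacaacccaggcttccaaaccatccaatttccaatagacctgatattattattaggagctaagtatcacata
Id2 to Rnf144a, chr12:26191469-26191768: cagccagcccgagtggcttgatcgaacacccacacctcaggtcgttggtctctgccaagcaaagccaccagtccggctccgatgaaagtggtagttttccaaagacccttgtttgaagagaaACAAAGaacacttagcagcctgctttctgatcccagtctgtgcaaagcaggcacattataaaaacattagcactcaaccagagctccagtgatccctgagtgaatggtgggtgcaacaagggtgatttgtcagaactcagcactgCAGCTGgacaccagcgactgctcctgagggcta

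The deposited lists differed in length, the shortest being that of control telencephalon culture 59 and the longest, at 52466 peaks, that of control brainstem culture 61, and the number of members called followed. Control telencephalon culture 59 called 288 members (7.69%). K27M telencephalon culture 51 called 3136 (83.7%), and the other libraries lay between 1273 and 3088. Control telencephalon culture 59 thus stood apart from the rest. When each list was reduced to its most significant peaks, as many as the shortest list held, referred to below as equal peak number, the members called ranged from 288 in that library to 702 in K27M telencephalon culture 61, with the other 11 libraries between 449 and 576. In these reduced lists 1753 members were found in at least 1 library, 878 in at least 3 and 0 in all 13. Read counts were not part of the deposited lists, so the sequencing depth is unknown and a peak that is not called is not evidence of closed chromatin.

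**Figure D1:**
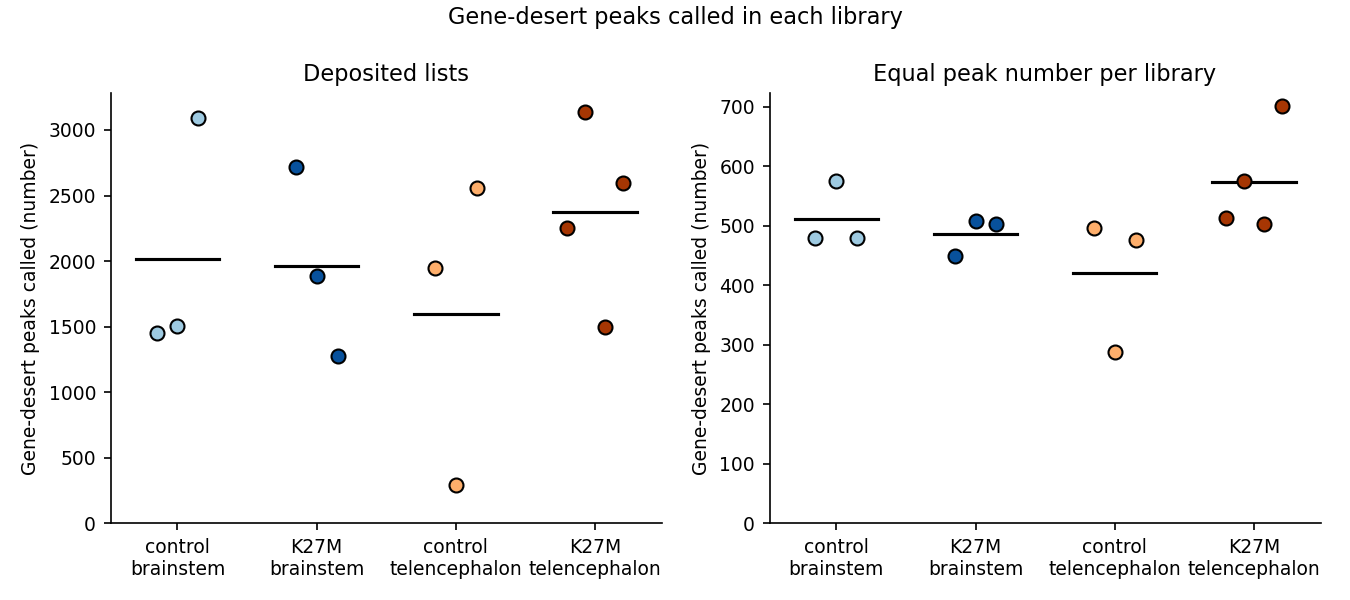
Number of gene-desert peaks called in each library, by group, from the deposited lists (left) and with every list reduced to the length of the shortest (right). Points are libraries and bars are group means. The spread of 288 to 3136 in the deposited lists narrowed to 288 to 702 at equal peak number, and control telencephalon culture 59 was lowest in both.

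Promoter peaks were used to check the cell type. Pdgfra, the receptor gene of OPCs, and Olig1, Olig2 and Sox10, which mark the whole oligodendrocyte lineage, had one in 13 of 13 libraries, and Cspg4, another OPC gene, in 3. Of the other marker sets, the mature oligodendrocyte genes Mog and Mag had none, and Mbp had one in 12 libraries. Gfap had one in 13, Cx3cr1 and Csf1r (microglia) and Tek (endothelium) in 0, P2ry12 (microglia) in 12, Flt1 (endothelium) in 11, and Snap25 and Syt1 (neurons) in 13. Open promoters occur without expression, and the part of other cells in the desert peaks was not tested.

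The label of the regions was checked against a second annotation. With the coding genes and the immunoglobulin and T-cell receptor segments of RefSeq (22406 genes and segments placed) added, 3524 members (94.1%) kept a distance of at least 100 kb and 222 (5.93%) did not. Of the latter, 76 overlapped a gene or segment listed there, most often Zswim6 with 6 members, which GENCODE M21 types as a processed transcript, and Zfp536 with 5, a zinc finger gene of the oligodendrocyte lineage. Robo2, the axon guidance receptor, and Tenm3, a teneurin of synaptic adhesion, had 4 each. GENCODE does not type receptor segments as protein-coding, and 49 members (1.31%) lay in such loci, 35 of them in the immunoglobulin heavy-chain locus on chromosome 12.

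The members were spread over all autosomes, from 60 on chromosome 19 to 309 on chromosome 13. They made up 6.03% of the autosomal merged peaks called in 3 to 12 libraries on chromosome 17 and 19.4% on chromosome 13. The median distance to the nearest coding gene was 214189 bp, with 2038 members beyond 200 kb, 450 beyond 500 kb and 92 beyond 1 Mb. At the limit, the nearest members inside it lay 100104 bp from Pdzrn3 (called in 7 libraries, mean fold 2.90), 100196 bp from Tmc1 (3 libraries, 2.72) and 100218 bp from Nav3 (5 libraries, 2.88). The nearest merged peaks outside it lay 99998 bp from Tle4 (11 libraries, 3.44) and 99931 bp from Rnf144b (12 libraries, 3.27). At the limits on library number, median fold was 2.70 for 1008 desert peaks in 2 libraries, 2.73 for 629 members in 3, 3.38 for 396 members in 12 and 3.79 for 639 desert peaks in 13.

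Many members shared an interval between the same genes. A longer interval has more room for peaks, and clustering beyond that was not tested. They fell into 901 deserts, here the interval between the nearest coding gene on each side, with a median of 3 members. In 224 deserts there was 1 member, while 289 deserts with at least 5 held 64.7% of all members and 73 deserts with at least 10 held 26.9%. The median distance from a member to the next was 33.4 kb, and 20.7% had another member within 10 kb. Of the members, 79.3% overlapped no annotated gene of any kind, 19.2% overlapped the body of a long noncoding gene, and 93.5% had no annotated gene start within 1 kb. Among distal peaks 10 to 100 kb from a coding gene these shares were 81.7%, 16.5% and 92.3%. The noncoding genes with the most members were 2610307P16Rik with 11 and 3110039I08Rik with 9. Sox2ot, the overlapping transcript of the Sox2 locus, held 8 members, and Pvt1, downstream of Myc, held 7.

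**Figure D2:**
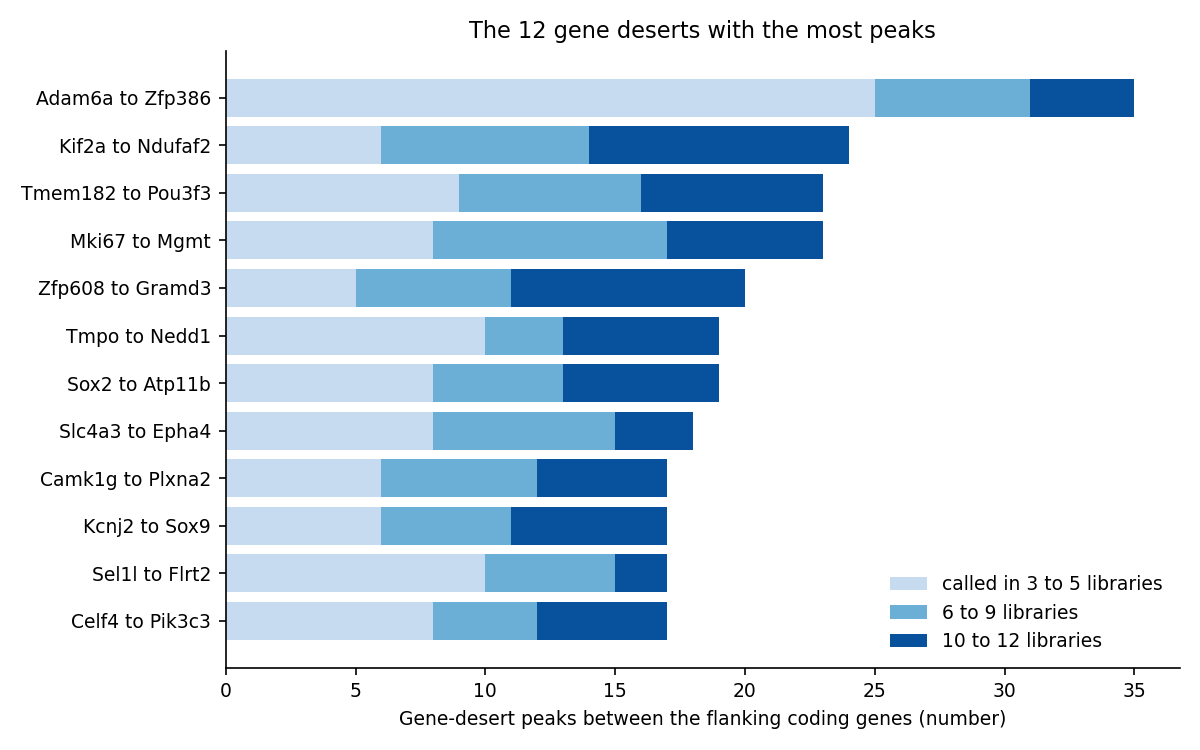
Number of gene-desert peaks in the 12 deserts that held the most, named by the coding gene on each side and split by the number of libraries that called each peak. The desert from Adam6a to Zfp386 held 35, of which 25 were called in 3 to 5 libraries, and that from Kif2a to Ndufaf2 held 24, of which 10 were called in 10 to 12.

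The desert with the most members, from Adam6a to Zfp386, spans the immunoglobulin heavy-chain locus. Its 35 members had a median fold of 2.60, and their calls did not follow the length of the lists. Control brainstem culture 61, the longest list, called 5 of them, control telencephalon culture 51 called 21 and control telencephalon culture 59, the shortest list, called 17. The list of control telencephalon culture 59 sets the length of the reduced lists and was itself not cut, so its 17 calls could not change. Each of the other 12 libraries, whose weaker peaks were removed, then called 0 to 2. This contrast therefore does not show that the locus is peculiar to that library. The strongest member there by rank (chr12:115176938-115177565) was called in 3 libraries, with folds of 2.94 in K27M brainstem culture 61, 3.12 in control telencephalon culture 51 and 3.02 in K27M telencephalon culture 59. Its sequence window was 75.7% repeat-masked, and RefSeq places a receptor segment 10861 bp away.

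The interval from Kif2a, a microtubule-depolymerising kinesin, to Ndufaf2, an assembly factor of respiratory complex I, held 24 members, 6 of them within Zswim6. The interval from Tmem182 to Pou3f3, a POU factor of neural development, held 23, as did that from Mki67, the proliferation gene, to Mgmt, which repairs alkylated guanine. The interval from Zfp608 to Gramd3 held 20 and that from Tmpo to Nedd1 held 19. The strongest member of the Tmem182 to Pou3f3 interval was called in 11 libraries (mean fold 3.75 ± 0.603, SD) and that of the Mki67 to Mgmt interval in 12 (3.26 ± 0.373). In the reduced lists, libraries called 3 to 6 of the Kif2a to Ndufaf2 members, 1 to 5 of the Tmem182 to Pou3f3 members and 0 to 4 of the Mki67 to Mgmt members. The regions overlapped in each of these 3 intervals.

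Genes of the oligodendrocyte lineage flanked 177 members (4.73%), against 155 of the 6418 distal merged peaks that lay 10 to 100 kb from a coding gene and met the same rule on chromosomes and libraries (2.42%). Of the 43 autosomal genes on this list, 24 flanked a member. Sox2, a factor of neural stem and progenitor cells, flanked 27 members, Sox9, which acts in glial fate, 22, and Zeb2, needed for oligodendrocyte maturation, 14. Sox4, Sox11 and Zfp536 flanked 12 each, Id2, an inhibitor of basic helix-loop-helix factors, 11, and Nfib, a factor of gliogenesis, 10. Pdgfra, the receptor used to capture the cells, flanked 1 member, called in 12 libraries at a mean fold of 3.17. A gene with a wider desert has more room for peaks, and the counts are not scaled for it.

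Genes of regional patterning flanked 185 members (4.94%, against 2.27% of the nearer distal peaks), and 25 of the 95 genes on that list flanked a member. Pou3f3 flanked 23, Irx1, an Iroquois homeobox gene, 20, Meis1, a Hox cofactor, 17, and Nr2f2, a nuclear receptor of ventral and caudal forebrain, 15. En1, which marks the midbrain and hindbrain, flanked 5. Genes of adhesion and axon guidance flanked 513 members (13.7%, against 4.10%), with 76 of 227 genes, led by Flrt2 with 24, the receptor Epha4 with 23 and the latrophilin Adgrl2 and the cadherin Cdh8 with 20 each. The shares describe where such genes lie and were not tested.

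The Sox2 desert shows how calls varied among cultures. Of its 19 members between Sox2 and Atp11b, brainstem libraries called 6 to 16 (mean 11.2 ± 4.45, n = 6) and telencephalon libraries 1 to 15 (9.57 ± 4.54, n = 7), with the low value in control telencephalon culture 59. With equal peak number the means were 3.17 ± 1.17 and 2.86 ± 1.68 by region, and 3.86 ± 1.21 in 7 K27M against 2.00 ± 0.894 in 6 control libraries, with ranges of 3 to 6 and 1 to 3. The value of 1 was that of control telencephalon cultures 51 and 59. Of all members, K27M libraries then called 14.3 ± 2.18% and control libraries 12.4 ± 2.53%. The desert from Ctnna3 to Reep3 ran the other way, at 0.714 ± 0.756 in K27M and 1.83 ± 0.753 in control libraries. These counts by desert were not tested. In the desert from Kcnj2 to Sox9 the libraries called 4 to 17 of 17 members, and at equal peak number 1 to 5. Both regions and both genotypes overlapped there in both lists.

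The fold enrichment of the members was compared with that of the nearer distal peaks, since distance from genes, not fold, defined the members. In each library the median fold over the members was higher. The mean of the library medians was 2.966 for desert peaks and 2.842 for the nearer peaks, a difference of 0.124. The difference was positive in 13 of 13 libraries (p = 0.000244, exact two-sided sign-flip permutation test, the smallest p it allows). All libraries were scored on the same set of merged peaks, so this p-value does not measure the spread between peaks. It ranged from 0.0824 in K27M telencephalon culture 41 to 0.187 in K27M telencephalon culture 51. It was 0.175 at equal peak number, and 0.117 within merged peaks called in the same number of libraries. The difference was small beside the spread of single members, whose mean fold ran from 1.91 to 5.04 with quartiles of 2.75 and 3.20. The median −log10 p was 4.76 ± 0.464 (SD over libraries) for desert peaks and 4.65 ± 0.435 for the nearer peaks, and was higher for desert peaks in 11 of 13 libraries. The windows of desert peaks had a median GC content of 45.3%, against 48.0% for the nearer peaks, and the part of GC content in the fold difference was not tested.

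**Figure D3:**
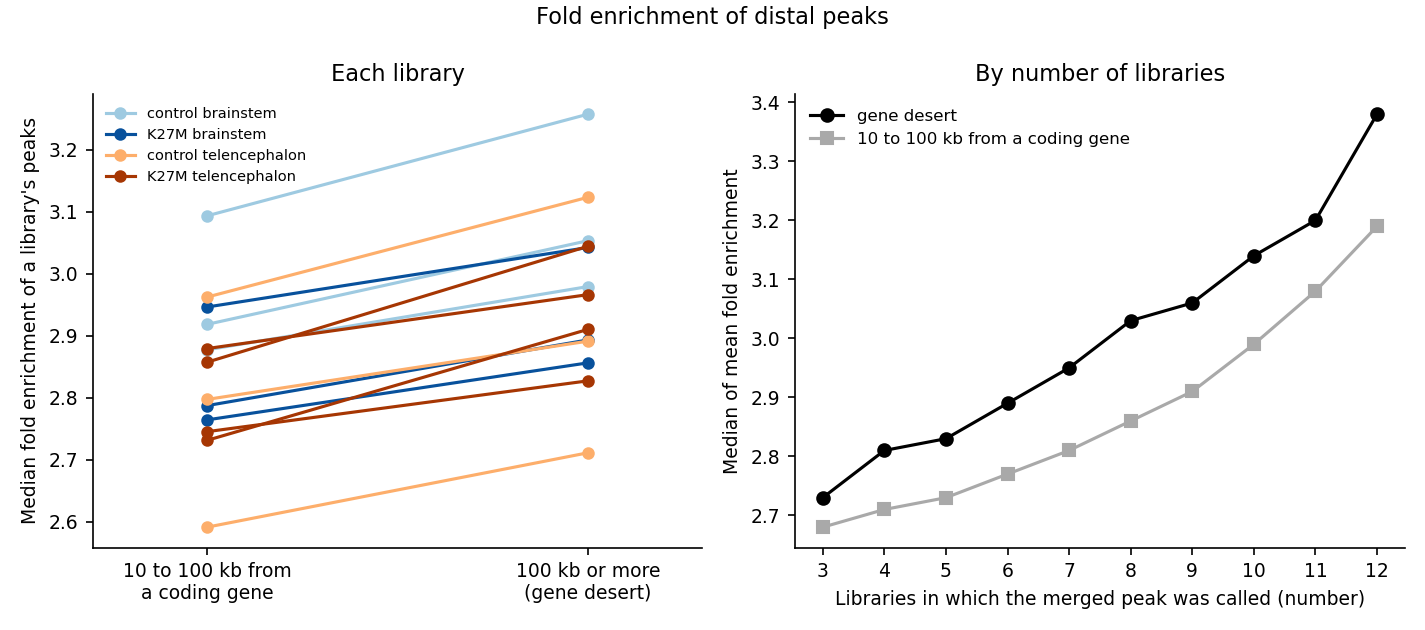
Left, median fold enrichment of each library's peaks 10 to 100 kb from a coding gene and in gene deserts, with 1 line per library coloured by group; every line rises. Right, median of the mean fold of merged peaks by the number of libraries that called them, from 2.73 to 3.38 for gene-desert peaks and from 2.68 to 3.19 for the nearer peaks. Neither fold axis starts at 0.

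Among the members, fold and width rose with the number of libraries that called a peak. The median fold was 2.73 for members in 3 libraries and 3.38 for those in 12, and the median width of the libraries' own peaks was 483 bp and 799 bp. The members were above the nearer peaks in median fold in each of the 10 classes of library number. Fold was also higher farther from genes, at a median of 2.91 for 1708 members at 100 to 200 kb, 2.97 for 1588 at 200 to 500 kb, 3.04 for 358 at 500 kb to 1 Mb and 3.05 for 92 beyond. Width did not separate the classes. Library medians averaged 581.8 bp for members and 579.1 bp for the nearer peaks, a difference of 2.69 bp with members wider in 6 of 13 libraries (p = 0.651, exact sign-flip test), and the direction turned at equal peak number (−14.2 bp, p = 0.0632).

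The 8 members with the highest mean percentile of fold within their libraries included 5 that were called in 12 libraries. Between Prmt6, an arginine methyltransferase, and Amy2a5, a pancreatic amylase, the peak had folds of 3.45 to 5.74 in the 12 libraries (mean 4.59 ± 0.664). The others in 12 libraries flanked Mc2r and Tcf4 (4.49 ± 0.544), Ythdf3 and Cypt12 (4.36 ± 0.430), Kif2a and Ndufaf2 (4.53 ± 0.763), and Pabpc4l and Pcdh18 (4.95 ± 0.976). Control telencephalon culture 59 was the library without a call in the first 4 of these, while the peak beside Pcdh18, a protocadherin, was called there at 4.25 and not in control brainstem culture 51.

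The other 3 of the 8 were narrow, called in few libraries and wholly repeat-masked in their 300 bp windows. The peak between Otol1 and Sis (330 bp) had folds of 4.64, 3.73, 6.17 and 5.62 in control brainstem culture 51, control telencephalon cultures 51 and 59 and K27M telencephalon culture 61. The peak between Stim2 and Pcdh7 (318 bp) was called in 5 libraries of both regions and genotypes (mean 4.41 ± 0.764). The peak between Csmd3 and Trps1 (382 bp) was called in 4 telencephalon libraries at 3.74, 3.98, 4.36 and 3.76 and in no brainstem library. Over all members, 140 (3.74%) had windows with no more unmasked than repeat-masked sequence, with a median fold of 2.90 and a median of 5 libraries, against 2.95 and 7 for the remaining 3606. Masked sequence is harder to map uniquely, and its part in these 3 peaks was not tested.

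In the deposited lists 3542 members (94.6%) were called in both regions, 55 in brainstem libraries only and 149 in telencephalon libraries only, while 147 were called in K27M libraries only and 24 in control libraries only. These were 1.47%, 3.98%, 3.92% and 0.641% of the members, against 1.47%, 2.89%, 2.62% and 0.784% of all 34035 autosomal merged peaks called in 3 to 12 libraries. At equal peak number 909 of 1753 (51.9%) were called in both regions, 332 in brainstem only and 512 in telencephalon only, and 462 in K27M only and 372 in control only. The last 4 were 18.9%, 29.2%, 26.4% and 21.2% of the members found, against 19.0%, 24.8%, 21.6% and 20.9% of the 15042 such merged peaks found in the reduced lists. There was 1 more telencephalon than brainstem library and 1 more K27M than control library, and the counts were not tested.

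The first question put to the members was whether desert peaks take a different share of the open sites in OPCs of the brainstem and of the telencephalon. They took 1.77 to 6.34% of a library's autosomal peaks. The mean was 5.30% over 6 brainstem and 5.25% over 7 telencephalon libraries, a difference of 0.0570 percentage points (p = 0.973, exact two-sided permutation of region labels within genotype, 700 arrangements). The difference was 0.837 points among control cultures, or −0.470 points without control telencephalon culture 59, and −0.509 points among K27M cultures, and the exact permutation test of the difference between the genotypes, with all 13 libraries, gave p = 0.420. Without control telencephalon culture 59 the region difference was −0.522 points (p = 0.117, exact permutation). The median fold percentile of desert peaks within their library was 52.6 in brainstem and 53.8 in telencephalon libraries (p = 0.546, same exact test).

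The same was asked of genotype. Desert peaks took 5.67% of the peaks of 7 K27M libraries and 4.81% of those of 6 control libraries, a difference of 0.863 points that was within the spread between cultures (p = 0.203, exact permutation of genotype labels within region). Without control telencephalon culture 59 the difference was 0.256 points. At equal peak number the K27M minus control difference was 0.922 points in telencephalon (p = 0.0571, exact permutation), or 0.524 points without control telencephalon culture 59 (p = 0.267, exact permutation), and −0.145 points in brainstem (p = 0.600), and the difference between the regions gave p = 0.0643. The median fold percentile was 52.5 in K27M and 54.2 in control libraries (p = 0.381, exact permutation). That difference of −1.71 was −3.09 at equal peak number (p = 0.147, exact permutation) and −11.6 with peaks of a −log10 p of at least 10, where the exact permutation p was at the threshold of 0.05 and did not pass it. That stricter cut left 2 desert peaks in control telencephalon culture 59, at a median percentile of 99.1. The other libraries kept 13 to 425, so that several of these medians rest on few peaks. The K27M lists held 39159 ± 9126 peaks and the control lists 35644 ± 12349. Without control telencephalon culture 59 the control lists held 39397 ± 9218, so that the order of the means turned.

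Single members were then compared for detection. Fisher's exact test was run on the 11424 autosomal merged peaks called in 5 to 8 libraries, 1355 of them members, with Benjamini-Hochberg adjustment over all of them. For region, 0 members passed an adjusted p of 0.05, the lowest adjusted p being 0.819, against a background of 0% of all peaks tested. At an unadjusted p under 0.05 there were 34 members (2.51%), 15 called more often in brainstem and 19 in telencephalon, against a background of 2.35% and 2.51% of the nearer distal peaks. The share of members was close to that of the peaks at large. Without control telencephalon culture 59 there were 21 members (1.55%, against 1.49% of all peaks tested). No member separated the regions completely, against 0.0613% of the peaks tested. At equal peak number, where 339 members of 4100 merged peaks were tested, the adjusted test again called 0 (background 0%), 25 members (7.37%) had an unadjusted p under 0.05 (background 5.80%, nearer distal peaks 8.95%), and 3 members separated the regions completely, all on the brainstem side (background 0.537%).

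These 3 members were called in all 6 brainstem libraries and in 0 of 7 telencephalon libraries at equal peak number (unadjusted p = 0.000583, adjusted p = 0.109, Fisher's exact test). The first lay between Cdh19, a cadherin of glial cells, and Dsel, a dermatan sulfate epimerase (chr1:111354768-111355929, 377.2 kb from Cdh19). In the deposited lists it was called in 12 libraries. Its folds were 4.25, 3.62 and 4.35 in control brainstem, 4.53, 3.92 and 4.95 in K27M brainstem, 2.76 and 3.23 in control telencephalon and 3.23, 3.75, 3.07 and 3.33 in K27M telencephalon. Most brainstem values exceeded every telencephalon value, and the lowest brainstem value, 3.62, was below the highest telencephalon value, 3.75. The window of this peak was 76.7% repeat-masked.

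The second lay between Gm5447 and A530084C06Rik (chr13:31184747-31185996), with folds of 4.07, 4.20 and 4.49 in control brainstem, 4.66, 3.80 and 2.93 in K27M brainstem, 2.95 and 3.71 in control telencephalon and 2.93, 2.98, 3.08 and 2.77 in K27M telencephalon. The regions overlapped through K27M brainstem culture 61 at 2.93. The third lay between Zfp608 and Gramd3 on chromosome 18, with folds of 3.02 to 4.06 in the 6 brainstem libraries and 2.52 and 2.85 in the 2 telencephalon libraries that called it. In all 3, control telencephalon culture 59 had no call.

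The lowest unadjusted p for region in the deposited lists was 0.00466 (Fisher's exact test, adjusted p = 0.819), shared by 3 of the 4 members named for brainstem and 2 of the 4 named for telencephalon. On the brainstem side these were a peak between Olfr721-ps1 and Slc4a7 (6 brainstem, 1 telencephalon library), one between Sox2 and Atp11b, 701.3 kb from Sox2 (5 and 0), and one between Pdzrn4 and Gxylt1 (5 and 0). The Sox2 peak had folds of 2.75 and 2.96 in control brainstem cultures 51 and 59 and of 3.17, 3.17 and 3.26 in the 3 K27M brainstem cultures. On the telencephalon side a peak between Tnc, the matrix protein tenascin C, and Pappa, a metalloprotease, was called in 6 telencephalon and 0 brainstem libraries at 2.76 to 3.11, as was one between Sorcs3 and Sorcs1, genes of neuronal sorting receptors, at 2.54 to 3.40. The members next in order lay between Pik3r1 and Cd180 (6 brainstem, 2 telencephalon libraries), Nox3 and Arid1b (0 and 5) and Arhgap42 and Cntn5 (0 and 5), each at p = 0.0210 (Fisher's exact test). Control telencephalon culture 59 called none of the 4 telencephalon peaks. At equal peak number the Olfr721-ps1, Pdzrn4, Tnc and Sorcs3 peaks were called in 0 libraries and the Sox2 peak in 1 brainstem library. The Pik3r1 peak was then called in 4 brainstem and 0 telencephalon libraries. The Nox3 and Arhgap42 peaks were each called in 2 telencephalon and 0 brainstem libraries.

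**Figure D4:**
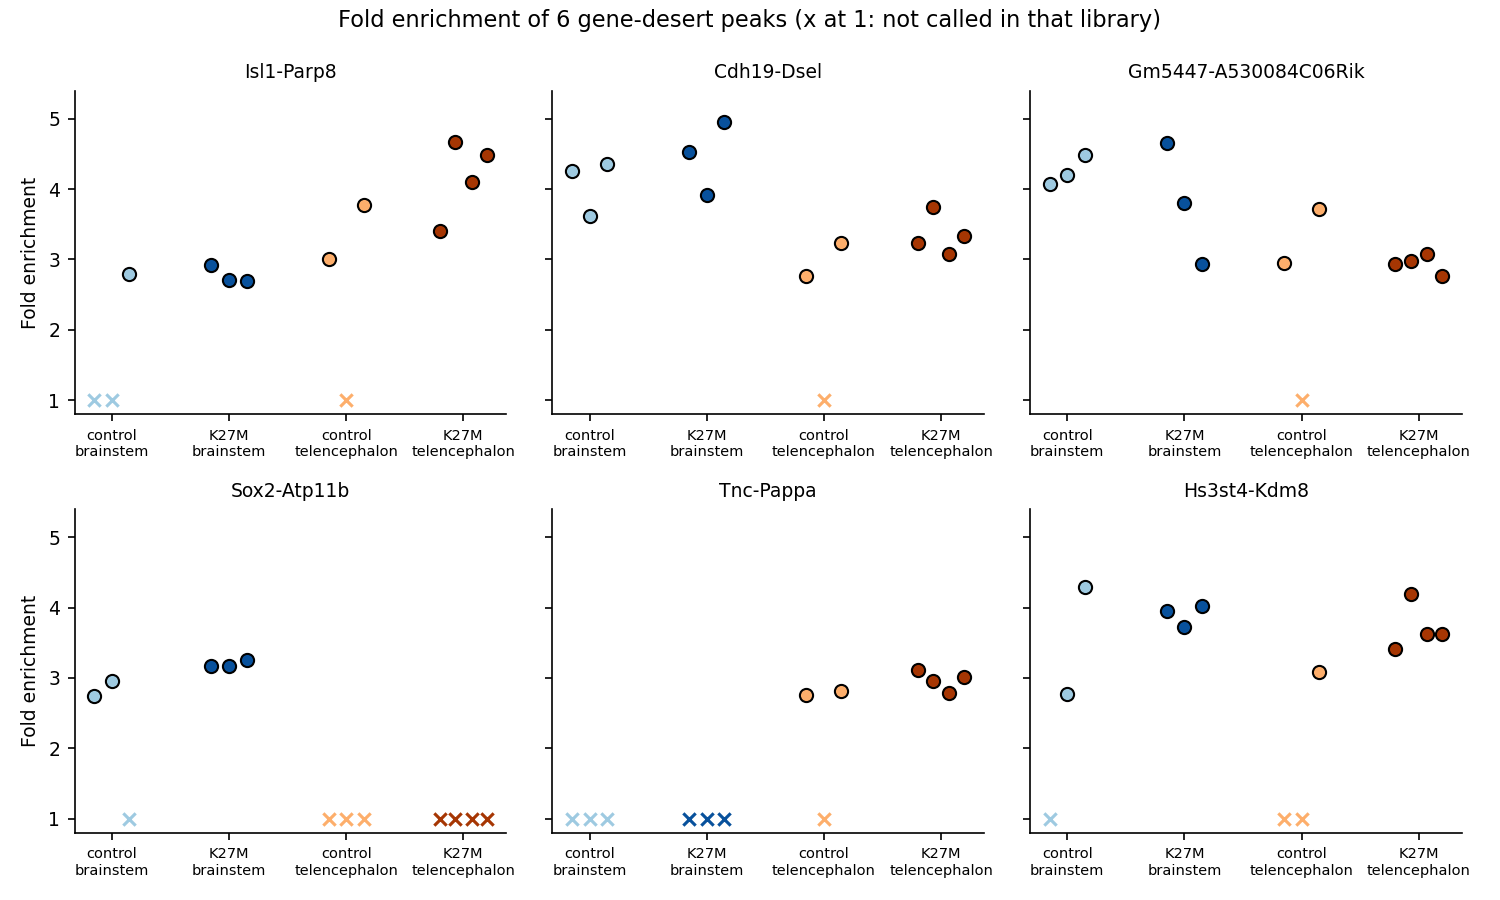
Fold enrichment in each library for 6 gene-desert peaks, by group; crosses at 1 mark libraries that did not call the peak. Isl1 to Parp8 lay higher in telencephalon, Cdh19 to Dsel and Gm5447 to A530084C06Rik higher in most brainstem libraries, the Sox2 and Tnc peaks were called in 1 region only, and Hs3st4 to Kdm8 was called in 7 of 7 K27M and 3 of 6 control libraries.

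For genotype, the Fisher's exact test called 0 members after adjustment (lowest adjusted p = 1.00, background 0%). The same limit on the smallest p applied, and 2 of all peaks tested separated the genotypes completely. This 0 therefore does not show that no member differed. At an unadjusted p under 0.05 there were 34 members, 30 called more often in K27M and 4 in control libraries, against a background of 1.26%. The members' share was 2.51% and that of the nearer distal peaks 1.63%. Without control telencephalon culture 59 there were 24 members, 17 called more often in K27M and 7 in control (1.77%, against 1.06% of all peaks tested). With the culture number as a block, 14 members (1.03%) had an unadjusted p under 0.05, against 0.551% of all peaks tested. Leaving out 1 library moved the count for the members and for all peaks alike. It was 67 (5.14%, all peaks 2.88%) without control brainstem culture 61, the longest list. Leaving out any 1 of the K27M libraries gave 7 to 17, the lowest (0.507%, all peaks 0.309%) without K27M telencephalon culture 61. No member separated the genotypes completely (background 0.0175%). At equal peak number the test called 0 (background 0%), and 9 members (2.65%) had an unadjusted p under 0.05 (background 3.22%, nearer distal peaks 3.62%). The members' share was thus below the background there, and above it in the deposited lists. At equal peak number 1 member separated the genotypes (background 0.0732%).

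That member lay between Hs3st4, a heparan sulfate sulfotransferase, and Kdm8, a JmjC-domain protein (chr7:124974812-124976247). With equal peak number it was called in 7 of 7 K27M and 0 of 6 control libraries (unadjusted p = 0.000583, adjusted p = 0.659, Fisher's exact test). In the deposited lists it was also called in 3 control libraries. Its folds were 2.77 and 4.29 in control brainstem cultures 59 and 61, 3.08 in control telencephalon culture 61, 3.95, 3.73 and 4.02 in K27M brainstem and 3.41, 4.19, 3.62 and 3.62 in K27M telencephalon. The genotypes therefore overlapped in fold.

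The members with the lowest p for genotype in the deposited lists were called more often in K27M between Kcnt2, a potassium channel gene, and Cdc73 and between Cenpw and Trmt11, each in 7 of 7 K27M and 1 of 6 control libraries (unadjusted p = 0.00466, adjusted p = 1.00). Between Bckdhb and Gm11114 a peak was called in 2 K27M and 6 control libraries (p = 0.0210), and between Ubash3b and Sorl1, within the noncoding gene 3110039I08Rik, in 1 and 5 (p = 0.0291, Fisher's exact test). At equal peak number the Kcnt2 peak was called in 0 K27M libraries and 1 control library, and the Cenpw peak in 0 libraries. The Bckdhb and Ubash3b peaks were then each called in 0 K27M libraries and 1 control library. The Kcnt2 to Cdc73 window was 100% repeat-masked.

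Fold itself was tested with limma on log2 fold over 23369 merged peaks called in at least 10 libraries, 1033 of them members, with values centred on peaks called in all libraries and the culture number as a block. A library without a call entered as a missing value. For region, 2 members passed an adjusted p of 0.05, 1 in each direction, against a background of 0.0257% of the peaks tested (6 peaks). An unadjusted p under 0.05 was found for 115 members (11.1%), 48 higher in brainstem and 67 in telencephalon, against a background of 7.08% and 10.9% of the nearer distal peaks. The median log2 difference over the members was −0.01. For genotype 0 members passed (background 0%), and 95 members (9.20%) had an unadjusted p under 0.05, 46 higher in K27M and 49 in control, against a background of 4.78% and 6.65% of the nearer distal peaks. These unadjusted counts depended on the centring. With no centring they were 41 members (3.97%, nearer distal peaks 3.88%) for region and 19 (1.84%, nearer distal peaks 1.27%) for genotype. Over all 23369 peaks they were then 643 and 243.

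One of the 2 was the Cdh19 to Dsel peak, at 0.45 ± 0.08 (log2, SE) higher in brainstem (adjusted p = 0.0247, limma). Without the culture number as a block it was 0.41 with an adjusted p of 0.0531, so that the call rested on the block. The other lay between Isl1, a LIM homeobox gene of motor and other neurons, and Parp8 (chr13:116513988-116515370, 204.3 kb from Isl1) and was lower in brainstem (log2 difference −0.56 ± 0.09, adjusted p = 0.0114, limma). Its folds were 2.79 in control brainstem culture 61, 2.92, 2.71 and 2.69 in K27M brainstem, 3.00 and 3.77 in control telencephalon and 3.40, 4.67, 4.10 and 4.48 in K27M telencephalon. Every telencephalon value exceeded every brainstem value among the 10 libraries that called it. This peak fell outside the rule for named peaks and was chosen after its value was seen. Leaving out 1 library at a time, the Cdh19 to Dsel peak kept an adjusted p under 0.05 in 6 of 13 fits (range 0.0286 to 0.235), the highest without K27M brainstem culture 61. The Isl1 to Parp8 peak could be fitted in 3 of 13 and kept it in 3, since without a library that called it only 9 values remained. Those 3 fits left out a library that had not called it and used the same 10 folds. They therefore do not show how the call depends on single libraries. With no centring both had an adjusted p of 0.999.

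Members beside the listed genes were counted in the same tests. Of 58 members beside lineage genes in the Fisher test for region, 0 were called and 1 had an unadjusted p under 0.05, and of 59 in the limma test 1 was called, the Cdh19 to Dsel peak. Beside patterning genes 0 of 62 and 0 of 53 were called, and beside adhesion and guidance genes 0 of 173 and 1 of 128, which was again the peak beside Cdh19, a gene on both lists. At an unadjusted limma p under 0.05 for region there were 11 of 59 members beside lineage genes (18.6%, 6 higher in brainstem and 5 in telencephalon), 9 of 53 beside patterning genes (2 and 7) and 13 of 128 beside adhesion and guidance genes (10.2%, 2 and 11), against 115 of 1033 members in all (11.1%). For genotype 0 were called in any of the 3 lists by either test. At equal peak number, brainstem libraries called 14.5 ± 1.66% (SD, n = 6) of the members beside lineage genes and telencephalon libraries 14.4 ± 3.28% (n = 7), against 13.3 ± 1.14% and 13.6 ± 3.30% of all members. Beside patterning genes the shares were 12.3 ± 2.15% and 11.4 ± 3.27%. Beside adhesion and guidance genes they were 11.5 ± 1.56% in brainstem and 14.9 ± 3.87% in telencephalon libraries. These shares were not tested.

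The strongest members beside lineage genes were found in both regions. A peak 552.4 kb from Id4, an inhibitor of differentiation in OPCs, was called in 10 libraries, with folds of 3.50 and 6.19 in control brainstem, 4.41, 3.34 and 3.62 in K27M brainstem, 3.36 and 4.10 in control telencephalon and 4.32, 4.11 and 3.36 in K27M telencephalon. Between Zeb2 and Acvr2a, an activin receptor gene, 2 peaks reached a mean of 3.71 ± 0.496 in 11 libraries and 3.67 ± 0.566 in 6. A peak 109.0 kb from Rnf144a in the desert beside Id2 was called in 11 libraries at 2.79 to 5.43 (3.77 ± 0.834). None of these 4 passed a test by region or genotype after adjustment.

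Finally, the letters at the centres of the peaks were compared, as a description. The motifs searched on both strands of the 300 bp windows were the AP-1 letters TGANTCA, the SOX letters ACAAAG and ACAATG, the E-boxes CAGCTG and CATATG, the POU octamer ATGCAAAT, the homeobox core TAATTA, the CREB site TGACGTCA, the TEAD core GGAATG, the NFI palindrome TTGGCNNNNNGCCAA and the CTCF core CCNNNAGNNGGC. Matches of different motifs may overlap. The SOX letters ACAAAG were in 37.1% of the desert windows, 32.0% of the windows of nearer distal peaks and 12.6% of 3500 peaks over coding gene starts. ACAATG was in 23.3%, 19.6% and 5.63%, the AP-1 letters in 15.3%, 13.4% and 3.83%, and TAATTA in 11.1%, 9.22% and 1.86%. The CTCF core ran the other way, at 6.19% in desert windows, 11.9% in the nearer windows and 13.1% over coding starts, as did the CREB site at 0.400%, 0.530% and 1.77%. CAGCTG, an E-box of neural basic helix-loop-helix factors, differed little between the distal classes, at 25.8% and 25.5%. The classes also differed in base composition, with median GC contents of 45.3%, 48.0% and 64.0%, and short AT-rich letters are more frequent in AT-rich sequence by composition alone.

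**Figure D5:**
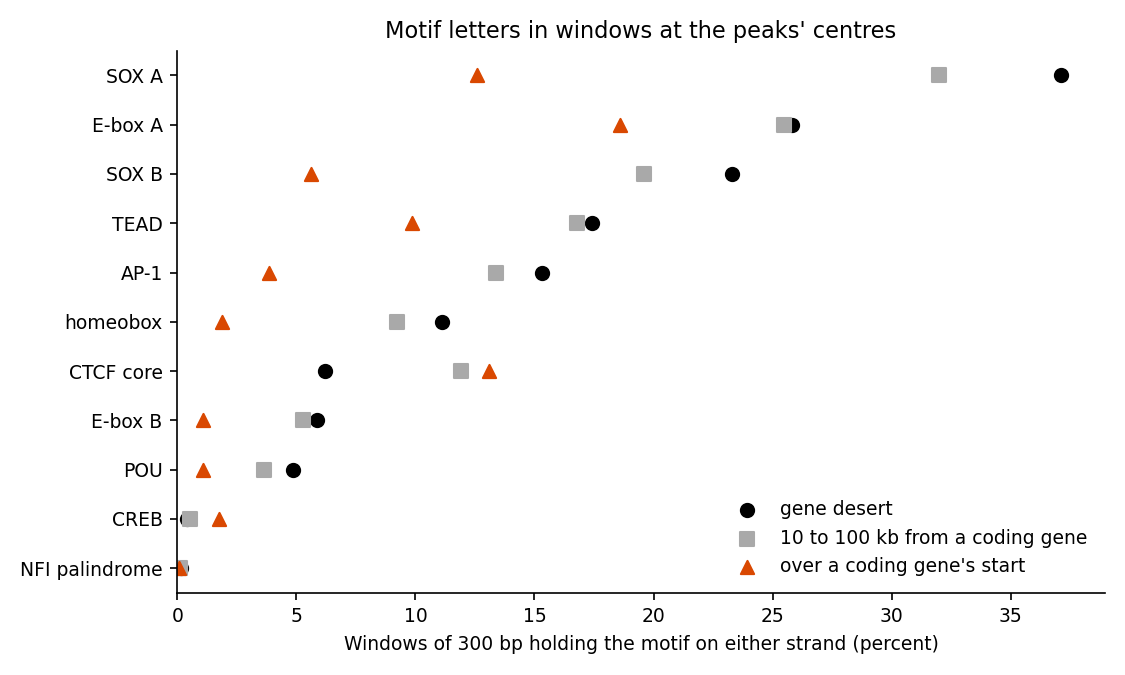
Percent of 300 bp windows at the peaks' centres that hold each motif on either strand, for gene-desert peaks, distal peaks 10 to 100 kb from a coding gene and peaks over a coding gene's start. SOX A and SOX B are ACAAAG and ACAATG, and E-box A and E-box B are CAGCTG and CATATG. The CTCF core was in 6.19% of the desert windows and 11.9% of the nearer distal windows.

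In the windows printed above, the CTCF core occurs in the Isl1 peak, the SOX letters between Prmt6 and Amy2a5, in the Gm5447 peak and in the Id2 peak, and CAGCTG in the Hs3st4, Zeb2 and Id2 peaks, while the Cdh19, Kif2a and Id4 windows hold none of the letters searched. A match shows only that the letters are present, and a window without one says nothing about the factor.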

How the data were processed

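Peak lists of 13 ATAC-seq libraries of cultured mouse OPCs were used as deposited. According to the methods and processing notes, the authors trimmed reads with Trim Galore 0.6.7 and cutadapt 3.4, used BWA 0.7.17-r1188 for alignment to mm10, discarded reads in blacklisted regions and called broad peaks in each library with MACS2 2.2.7.1. A cutoff for the ATAC-seq calls is not given in the sources used here, which state one for broad ChIP-seq peaks. The deposited columns hold a score, the fold enrichment ratio over local background (1.34 to 14.6), and the −log10 of the p-value (lowest 2.82) and q-value (lowest 1.00). No read counts were used, so depth per library is unknown and precision rests on the number of libraries.

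Peaks were joined at 1 bp of overlap and measured against GENCODE M21 genes (GRCm38). Sequence was read from the RefSeq copy of GRCm38. Distal peaks 10 to 100 kb from a coding gene, under the same rule on chromosomes and libraries, served for comparison. Fold was the mean over the libraries that called a peak. Library values were compared with exact permutation or sign-flip tests (SciPy 1.17.1), detection with Fisher's exact test in merged peaks called in 5 to 8 libraries, and log2 fold with limma 3.58.1 in those called in at least 10, with Benjamini-Hochberg adjustment over all peaks tested. The statistics were tested on simulated data. Peaks were named by fixed rules: complete separation of groups, lowest p for detection, highest fold percentile, strongest in the 5 fullest deserts, strongest beside lineage genes, and closest to the 100 kb limit. The Isl1 to Parp8 peak was added after its value was seen. Some items these rules name are not reported here. The members and gene lists were chosen with earlier results of these data known.

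Alternatives were equal list length, a stricter −log10 p of 10, a distance of 200 kb, leaving out each library, the culture number as a block or not, limma without centring or from 8 libraries, and, chosen after seeing the data, RefSeq genes added, peaks matched on library number and within-group values without control telencephalon culture 59. Same-numbered cultures did not deviate together (r −0.107 to 0.0702 over 16 pairs, against −0.108 to 0.114 over 47 pairs of different number).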

Additional observations from a re-analysis of the deposited data

Results flagged for a closer look

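Outlying values were looked for in 21 sets of 4 libraries, where chance alone marks about 1 in 20. The peak between Kcnt2 and Cdc73 had a fold of 2.87 in K27M telencephalon culture 59, far above the other 3 cultures of that group at 2.50, 2.50 and 2.52. The peak called Zeb2 to Acvr2a in 11 libraries had a fold of 4.68 in K27M telencephalon culture 51, against 3.14, 3.32 and 3.28 in the others. In both the gap to the nearest value, divided by the range, was above the 95% critical value of Dixon's test for 4 samples.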

How the results depend on the processing

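The higher fold of desert peaks kept its direction and its side of the threshold under each alternative run (0.117 to 0.320). The value of 0.320 came from stringent peaks, where control telencephalon culture 59 held 2 desert peaks and 1 nearer peak. The region difference in desert share, 0.0570 points, turned to −0.0615 at equal peak number, −0.0194 with stringent peaks and −0.0270 at 200 kb, and ran from −0.522 to 0.239 when 1 library was left out. The region difference in fold percentile turned to 0.0678 at equal peak number. The genotype difference in fold percentile widened from −1.71 to −11.6 with stringent peaks, with an exact permutation p at the threshold of 0.05. There the library medians rested on 2 to 425 desert peaks. The width difference turned to −14.2, −13.7 and −4.38 bp with equal peak number, stringent peaks and 200 kb, and ran from −0.708 to 5.17 bp when 1 library was left out. The cause of these turns was not tested, and none of these differences passed its test.

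Without the culture number as a block, 1 member was called for region by limma (4 of all peaks tested), with no centring 0 (0 of all), and leaving out 1 library gave 0 to 3 (0 to 11 of all). As a replicate block, with pairs of the same culture number, the desert share differed by 0.212 points by region (p = 0.812, exact sign-flip test) and 0.768 by genotype (p = 0.500), and the fold percentile by −0.656 (p = 0.781) and −2.28 (p = 0.438). The block decided the call of the Cdh19 to Dsel peak and of no other member called. Leaving out 1 library, members with an unadjusted p under 0.05 numbered 6 to 48 for region (6 of 1429 with 87 of 12254 peaks in all, and 3.68% with 2.85% of all peaks) and 7 to 67 for genotype (0.507 to 5.14%, against 0.309 to 2.88%). Depth is unknown, so sites near the calling limit cannot be told from closed ones.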
